A study of Mus musculus with 9 samples.

Results

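The endoplasmic reticulum (ER) chaperone and unfolded protein response (UPR) genes examined here were 10 protein-coding genes chosen by name, Hspa5, Hsp90b1, Dnajb9, Pdia4, Sdf2l1, Calr, Xbp1, Herpud1, Hyou1 and Edem1, of 56748 genes in the deposited table. All 10 were among the 14510 genes that passed the filter on low counts, with between 148 and 24647 reads in any library. RNA-seq libraries came from the mouse hepatoma line Hepa1-6, 3 of them from control cells, 3 after 2 days in lefamulin and 3 after 2 days in tiamulin, with either drug at 37 µg/ml. The control is called untreated in the sample labels and vehicle-treated in the study's methods. Lefamulin and tiamulin are pleuromutilin antibiotics that share the pleuromutilin core and differ in the side chain, and both block protein synthesis on the bacterial ribosome. The libraries are samples of a single cell line, and nothing says that they came from separate cultures, so p-values measured the spread between these libraries only. The comparisons address whether the ER stress arm of the cell's transcriptional response moved under either drug.

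Proteins bound for secretion or for membranes fold in the ER lumen, where chaperones hold them, oxidoreductases form their disulfide bonds and lectins monitor their glycans. When unfolded protein builds up, the sensors IRE1 (Ern1), ATF6 and PERK (Eif2ak3) signal to the nucleus. IRE1 splices Xbp1 mRNA, ATF6 is cut to release a transcription factor, and together they raise chaperone and ER-associated degradation (ERAD) genes, whereas PERK slows translation and raises ATF4 and CHOP (Ddit3). ATF4 is also raised by other kinases of the integrated stress response, so its targets and the chaperones need not move together. Hepatocytes carry a large secretory load, and Hspa5, Hsp90b1 and Calr are abundant in them.

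The libraries held between 15568887 and 18008105 gene counts. Same-group libraries differed by 2.88 to 7.57 times the variance expected from counting (chi-square per degree of freedom), except that tiamulin 2 differed from tiamulin 1 by 18.1 and from tiamulin 3 by 20.6 times. A gene's deviations from its group mean sum to 0 over the 3 libraries, so GC trends within a group are tied to each other. In tiamulin 2 the deviation of genes from their group mean rose with their GC content (Spearman rho 0.694 across 10313 genes, which are not independent), against -0.533 and -0.576 in tiamulin 1 and 3, 0.493, -0.492 and 0.026 in controls 1 to 3, and -0.143 to 0.184 in the lefamulin libraries. Tiamulin results of the 10 genes, and the counts of the gene lists against control, are therefore also given without tiamulin 2. Among 10 hepatocyte and hepatoma markers, Alb, Afp, Trf, Hnf4a, Krt18 and Fgb had mean control values of 207, 284, 166, 75.2, 763 and 32.2 FPKM (counts scaled by gene length and library total), whereas Serpina1a had 0 counts and Apoa1 and Ttr at most 6 and 2 counts in any library. Of the 7 such markers tested, 1 was higher and 2 lower under lefamulin and 1 higher and 4 lower under tiamulin, where mean Alb was 147 FPKM, Afp 163 FPKM and Krt18 989 FPKM. Their summed FPKM was 1470 to 1571 in control libraries, 1407 to 1485 with lefamulin and 1484 to 1762 with tiamulin. Of 5 blood cell markers, Cd3e was at 0 in every library. The 5 had a summed FPKM of 7.03 to 7.68 in control libraries, of 8.56 to 13.6 with lefamulin and of 11.9 to 16.5 with tiamulin, mostly from Cd68. Of the 3 tested, 1 was higher and 1 lower under each drug. Mean Csf1r was 0.456 FPKM in controls, 0.181 with lefamulin and 0.182 with tiamulin. Dcn made up nearly the whole sum of the 4 fibroblast markers, 252 to 266 FPKM in control libraries, 192 to 201 with lefamulin and 177 to 191 with tiamulin, while Col1a1, Col1a2 and Pdgfrb had at most 12 counts in any library. The 3 endothelial markers summed to at most 0.121 FPKM and the 3 cholangiocyte markers to 4.404 to 5.48 FPKM. The part of these markers in the results was not tested.

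The promoters that hold a known UPR element are shown because chaperone genes are textbook targets of these elements. RefSeq promoter windows, 250 bases before to 50 bases after the start of the gene, were given for 9 of the 10 genes in GRCm38.p6, and Hyou1 had no entry. The ER stress response element (ERSE) reads CCAAT, then 9 bases of any kind, then CCACG, and is bound by NF-Y and ATF6. ERSE-II is a shorter relative that reads ATTGG, any base, then CCACG. Both strands were searched for exact letters. The 250 bases before the start are printed 5′ to 3′ on the strand of the gene, from chr2:34771840-34772089 (plus) for Hspa5, chr10:86705445-86705694 (minus) for Hsp90b1, chr8:84846932-84847181 (minus) for Calr and chr8:94386179-94386428 (plus) for Herpud1. Capitals mark the matched motifs.
Hspa5: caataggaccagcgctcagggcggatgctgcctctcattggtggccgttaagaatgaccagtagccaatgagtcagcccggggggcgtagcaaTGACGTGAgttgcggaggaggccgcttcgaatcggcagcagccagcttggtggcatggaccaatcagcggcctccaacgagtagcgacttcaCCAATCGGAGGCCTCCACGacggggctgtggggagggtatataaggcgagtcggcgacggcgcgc
Hsp90b1: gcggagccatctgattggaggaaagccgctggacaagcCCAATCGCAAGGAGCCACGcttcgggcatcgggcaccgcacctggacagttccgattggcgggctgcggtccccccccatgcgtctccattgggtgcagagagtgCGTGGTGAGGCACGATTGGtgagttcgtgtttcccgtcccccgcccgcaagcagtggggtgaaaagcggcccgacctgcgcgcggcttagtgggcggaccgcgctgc
Calr: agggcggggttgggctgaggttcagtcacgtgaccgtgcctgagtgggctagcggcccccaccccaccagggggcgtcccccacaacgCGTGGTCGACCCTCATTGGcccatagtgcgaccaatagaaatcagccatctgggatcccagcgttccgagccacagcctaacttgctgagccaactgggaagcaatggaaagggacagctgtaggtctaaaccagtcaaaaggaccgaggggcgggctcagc
Herpud1: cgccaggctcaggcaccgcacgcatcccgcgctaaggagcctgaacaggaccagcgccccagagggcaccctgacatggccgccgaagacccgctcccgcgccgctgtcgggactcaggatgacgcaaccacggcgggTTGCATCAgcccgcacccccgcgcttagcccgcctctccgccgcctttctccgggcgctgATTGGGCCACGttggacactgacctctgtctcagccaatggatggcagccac

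ERSE was found in 3 of the 9 windows, and in 39 (0.119%) of 32851 windows in the table. In Hspa5 it lay at -65 to -47, counted from the RefSeq start, in Hsp90b1 at -212 to -194 and, on the opposite strand, at -107 to -89, and in Calr on the opposite strand at -162 to -144. ERSE-II lay at -52 to -42 in Herpud1 and in 12 windows of the table (0.0365%). Herpud1 also held a C/EBP-ATF element (TGATGNAA, the site of ATF4 and CHOP dimers) on the opposite strand at -112 to -105, which 1304 windows (3.97%) held, and Hspa5 a CRE-like element (TGACGTGA) at -157 to -150, which 145 windows (0.441%) held. The UPRE core of spliced XBP1 (TGACGTGG), which differs from the CRE-like letters in its last base, was in 222 windows (0.676%) and in 0 of the 9. No 2 of these matches overlapped. Dnajb9, Pdia4, Sdf2l1, Xbp1 and Edem1 had no match in these windows. The bases after the RefSeq start were found in a transcript of the same gene for 7 of the 9 windows. For Pdia4 and Xbp1 they were not, so these 2 windows were not shown to lie at a transcript start. A match is a run of letters and not a measured binding site.

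**Figure D1:**
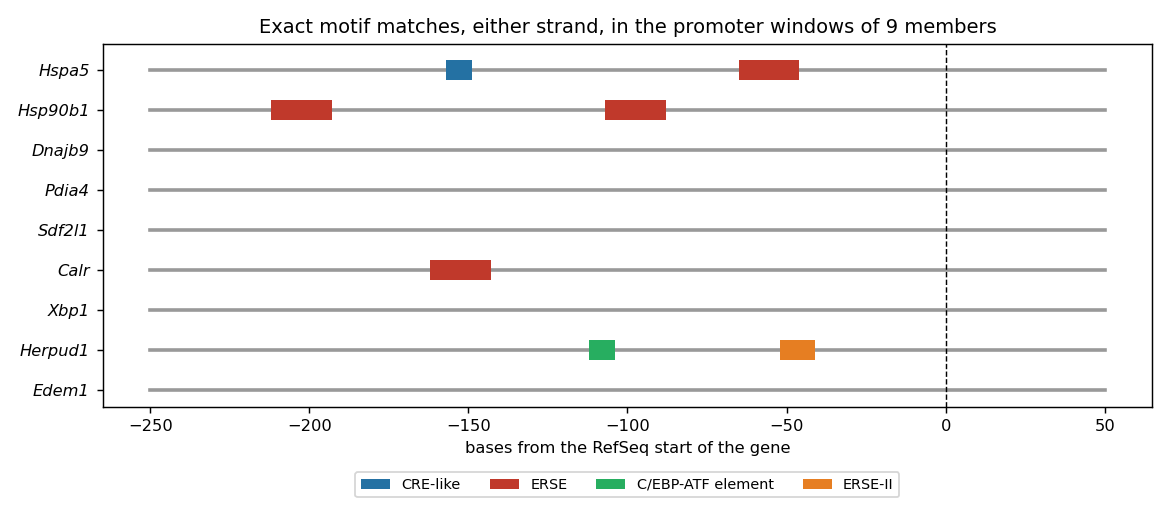
Exact motif matches on either strand in the RefSeq promoter windows of 9 of the 10 genes, with the distance in bases from the RefSeq start on the x axis and a row for each gene. Hspa5, Hsp90b1 and Calr hold ERSE matches (red), Herpud1 holds ERSE-II (orange) and a C/EBP-ATF element (green), and the other 5 rows are empty.

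In control cells the genes spanned a wide range of abundance. Per length, Hsp90b1 (231.6 ± 13.7 FPKM, mean ± SD, n = 3), Hspa5 (218 ± 6.95 FPKM) and Calr (178.0 ± 4.57 FPKM) ranked 131, 150 and 182 among 21970 protein-coding genes in control cells, of which 15515 had a value above 0. Hsp90b1 and Hspa5 did not differ beyond their spread. Pdia4 followed at 87.7 ± 1.44 FPKM, and then Xbp1 (38.0 ± 1.78), Hyou1 (34.1 ± 1.52), Edem1 (26.7 ± 1.52) and Herpud1 (21.2 ± 1.63). The least abundant were Dnajb9 (10.2 ± 0.788 FPKM) and Sdf2l1 (7.68 ± 0.114 FPKM).

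Under lefamulin 6 of the 10 genes rose, none of them above 1.59-fold. Hspa5 and Sdf2l1 rose 1.59-fold each, Herpud1 1.34-fold, Dnajb9 1.33-fold, Hsp90b1 1.22-fold and Pdia4 1.16-fold, whereas Calr, Xbp1, Hyou1 and Edem1 did not pass the test. Thus 6 genes were higher and 0 lower at an adjusted p below 0.05, against 13.1% of all tested genes called, 7.09% higher and 6.00% lower (edgeR quasi-likelihood test, Benjamini-Hochberg adjustment over all tested genes). Without control 1 the count was 3 higher, beside 7.72% of all genes called in that fit, and without tiamulin 2, whose spread enters the shared estimate, it was 7 higher and 1 lower, beside 24.9%. Leaving out any other library gave 4 to 6 higher and 0 lower, beside 6.69% to 13.1% of all genes. None passed the study's further threshold of an absolute log2(fold change) above 1, which 1.51% of all genes did. The median log2 fold change of the 10 genes was 0.25, and that of all tested genes -0.0018. The libraries are bulk RNA, in which a change in RNA per cell and a change in the mix of cells cannot be told apart. In 9 of 10 genes the lefamulin and control libraries did not overlap, as in 37.6% of all tested genes.

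**Figure D2:**
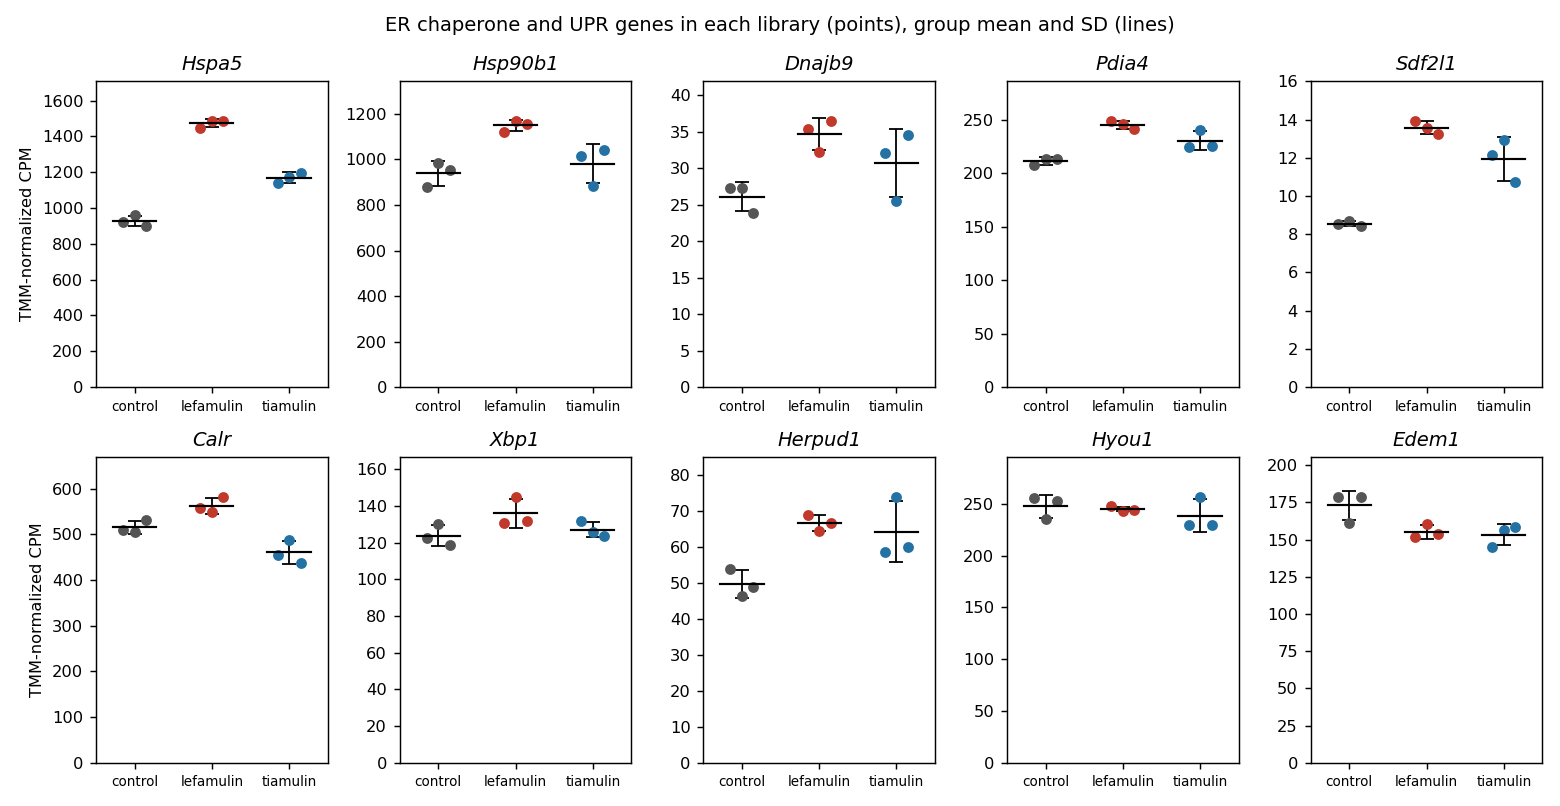
CPM (counts scaled by TMM to a common library total, y axis from 0) of each gene in the 9 libraries, with points for libraries, long lines for group means and bars for the SD. The 3 lefamulin libraries lie above the 3 controls in 8 of the 10 panels, while in Hyou1 the groups overlap and in Edem1 the lefamulin libraries lie below the controls.

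The HSP70 system of the ER lumen is built on BiP, encoded by Hspa5 (ENSMUSG00000026864, chromosome 2, 34661982 to 34667559 as deposited), which binds nascent chains and keeps the UPR sensors inactive. Hspa5 stood at 923, 959 and 902 CPM in controls 1 to 3, at 1447, 1485 and 1486 CPM under lefamulin, and at 1137, 1175 and 1197 CPM under tiamulin. The groups were fully ordered, with every lefamulin library above every tiamulin library and every tiamulin library above every control. Hspa5 was 58.7% higher under lefamulin (log2 fold change 0.67, SE 0.047, edgeR adjusted p = 6.42e-07), and this call held when any library was left out.

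Sdf2l1 (ENSMUSG00000022769, chromosome 16, 16948002 to 16950247 as deposited) encodes a partner of BiP and its DNAJ cochaperones. It was counted by 148, 149 and 151 reads in control libraries, by 218, 225 and 216 with lefamulin and by 200, 207 and 182 with tiamulin, or 8.55 ± 0.119, 13.6 ± 0.346 and 11.9 ± 1.13 CPM (mean ± SD, n = 3). These groups were fully ordered in the same way as Hspa5, at far lower CPM. Lefamulin raised it by 0.67 on the log2 scale (SE 0.111, edgeR adjusted p = 0.00119), and the call held when any library was left out.

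Dnajb9 (ENSMUSG00000014905, chromosome 12, 44252342 to 44257109 as deposited) encodes ERdj4, a DNAJ cochaperone that recruits BiP to IRE1 and to ERAD substrates. Its values were 27.3, 27.2 and 23.8 CPM in controls, 35.3, 32.2 and 36.5 CPM under lefamulin, and 32.1, 25.5 and 34.6 CPM under tiamulin. Lefamulin libraries lay above the controls, and tiamulin 2 lay within them. Under lefamulin Dnajb9 changed by 0.41 on the log2 scale (SE 0.109, edgeR adjusted p = 0.0236), and the adjusted p was 0.0517 without control 1, 0.123 without control 3, 0.083 without lefamulin 1 and 0.102 without lefamulin 3.

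Hyou1 (ENSMUSG00000032115, chromosome 9, 44290787 to 44303666 as deposited) encodes GRP170, a large HSP70 relative that exchanges nucleotide on BiP. It stood at 256, 235 and 252 CPM in controls, 248, 243 and 244 CPM under lefamulin, and 229, 257 and 230 CPM under tiamulin, with overlapping groups. Its log2 fold change was -0.02 with lefamulin (95% interval -0.14 to 0.11, edgeR adjusted p = 0.899) and -0.05 under tiamulin (-0.18 to 0.07, adjusted p = 0.596). The upper bounds lay below the lower bound for Hspa5 in the same comparison, which was 0.56 under lefamulin and 0.23 under tiamulin.

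Hsp90b1 (ENSMUSG00000020048, chromosome 10, 86526073 to 86541373 as deposited) encodes GRP94, the ER member of the HSP90 family. Control libraries had 878, 985 and 953 CPM, lefamulin libraries 1122, 1169 and 1157 CPM, and tiamulin libraries 1017, 884 and 1043 CPM. The lefamulin libraries stood apart from the other 6, and tiamulin 2 lay among the controls. Under lefamulin the log2 fold change was 0.29 (SE 0.065, edgeR adjusted p = 0.00847), and the adjusted p was 0.0524 without control 1.

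Pdia4 (ENSMUSG00000025823, chromosome 6, 47773075 to 47790364 as deposited) encodes ERp72, a protein disulfide isomerase. It was 207, 213 and 214 CPM in controls, 248.8, 246 and 241 CPM under lefamulin, and 225, 240 and 226 CPM under tiamulin, a full order of the groups over a small range. The log2 fold change under lefamulin was 0.21 (SE 0.052, edgeR adjusted p = 0.0136). Without control 1, control 3, lefamulin 1 or lefamulin 2 the adjusted p was 0.0689, 0.0565, 0.06 and 0.0653.

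Calr (ENSMUSG00000003814, chromosome 8, 85568479 to 85573563 as deposited) encodes calreticulin, a calcium-binding lectin chaperone of glycoproteins. It stood at 509.9, 505 and 531 CPM in controls, 558, 548 and 582 CPM under lefamulin, and 455, 488 and 437 CPM under tiamulin. The lefamulin libraries lay above the controls and the tiamulin libraries below them. The log2 fold change under lefamulin was 0.13 (SE 0.054, edgeR adjusted p = 0.144), and the adjusted p was 0.0123 without tiamulin 2, whose spread enters the shared estimate.

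Xbp1 (ENSMUSG00000020484, chromosome 11, 5470659 to 5475893 as deposited) encodes the transcription factor whose mRNA IRE1 splices. Counts per gene add the spliced and unspliced forms, so splicing was not measured. Xbp1 was 123, 130.1 and 119 CPM in controls, 131, 145 and 132 CPM under lefamulin, and 132, 126 and 124 CPM under tiamulin. The lowest lefamulin library lay just above the highest control, with a log2 fold change of 0.13 (95% interval 0.002 to 0.27, edgeR adjusted p = 0.175).

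In ERAD, Herpud1 (ENSMUSG00000031770, chromosome 8, 95113066 to 95122005 as deposited) encodes a membrane scaffold of the HRD1 ubiquitin ligase. It stood at 53.9, 46.4 and 48.8 CPM in controls, 68.8, 64.3 and 66.7 CPM under lefamulin, and 58.7, 74.0 and 59.98 CPM under tiamulin. Every treated library lay above every control. The log2 fold change under lefamulin was 0.42 (SE 0.091, edgeR adjusted p = 0.00702), and the call held when any library was left out.

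Edem1 (ENSMUSG00000030104, chromosome 6, 108805602 to 108836317 as deposited) encodes a mannosidase-like protein that hands misfolded glycoproteins to ERAD. It was 178, 161 and 179 CPM in controls, 152, 161 and 154 CPM under lefamulin, and 145, 156 and 158 CPM under tiamulin. Every treated library lay below every control, by a narrow margin for lefamulin 2 against control 2. Fold changes on the log2 scale were -0.15 under lefamulin (SE 0.061, edgeR adjusted p = 0.115, 0.0192 without tiamulin 2) and -0.18 under tiamulin (SE 0.061, adjusted p = 0.0645, 0.011 without tiamulin 2 and 0.0455 without control 2).

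Under tiamulin 3 of the 10 genes rose, all 3 of which also rose under lefamulin. Sdf2l1 rose 1.40-fold (log2 fold change 0.48, SE 0.112, edgeR adjusted p = 0.00885), Herpud1 1.29-fold (0.37, SE 0.091, adjusted p = 0.0122) and Hspa5 1.26-fold (0.33, SE 0.047, adjusted p = 0.000235). These 3 higher and 0 lower stand against 16.4% of all tested genes called, 9.08% higher and 7.34% lower. None passed an absolute log2(fold change) of 1, which 1.78% of all genes did. The median of the 10 log2 fold changes was 0.09, and that of all tested genes 0.0034. The tiamulin and control libraries did not overlap in 6 of 10 genes, as in 32.3% of all tested genes.

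The calls of Hspa5 and Sdf2l1 under tiamulin held when any library was left out. For Herpud1 the adjusted p was 0.0644 without control 2 and 0.0597 without control 3, and its highest tiamulin value came from tiamulin 2, without which its log2 fold change was 0.25 (adjusted p = 0.00841). The log2 fold change of Hsp90b1 was 0.06 (95% interval -0.07 to 0.20, edgeR adjusted p = 0.557), that of Dnajb9 0.24 (adjusted p = 0.165), of Pdia4 0.12 (adjusted p = 0.125), of Xbp1 0.04 (adjusted p = 0.747) and of Calr -0.16 (adjusted p = 0.0541). Without tiamulin 2, Hsp90b1 was higher at 0.13 (adjusted p = 0.0199) and Dnajb9 at 0.35 (adjusted p = 0.00414), while Calr was lower at -0.21 (adjusted p = 0.00039) and Edem1 at -0.19, so that 5 genes were higher and 2 lower, beside 23.1% of all genes called in that fit. Their median was then 0.11, with 0.33 for Hspa5, 0.42 for Sdf2l1, 0.09 for Pdia4, 0.04 for Xbp1 and -0.11 for Hyou1, of which the last 3 were not called. Once each library was corrected for GC content and length by offsets, 6 were higher, Hsp90b1, Dnajb9 and Pdia4 being added, and 3 lower, namely Calr, Hyou1 and Edem1, beside 27.1% of all genes called with these offsets.

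Compared with each other at the same dose and time, the compounds differed in 2 of the 10 genes. Hspa5 was 20.6% lower under tiamulin than under lefamulin (log2 fold change -0.33, SE 0.047, edgeR adjusted p = 0.00133), and Calr was 18.2% lower (-0.29, SE 0.054, adjusted p = 0.00784). No gene was higher under tiamulin. These counts of 2 lower and 0 higher stand against 4.89% of all tested genes called, 2.84% higher and 2.05% lower. Mean CPM was higher under lefamulin in 10 of 10 genes, with a median log2 fold change of -0.14 against 0.003 for all tested genes, and the libraries of the 2 drugs did not overlap in 5 genes, as in 26.5% of all tested genes.

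The direct comparison of Hspa5 held when any library was left out, and that of Calr had an adjusted p of 0.0654 without lefamulin 3. For Hsp90b1 the log2 fold change was -0.23 (95% interval -0.37 to -0.09, edgeR adjusted p = 0.0581), and the adjusted p was 0.017 without tiamulin 2 and 0.034 without tiamulin 3. It was also called lower with no filter on low counts (0.00458), with DESeq2 (0.0223), with GC and length offsets (0.00255) and with offsets and a replicate block (0.00887). Without tiamulin 2 the values were -0.34 for Hspa5, -0.34 for Calr and -0.16 for Hsp90b1, so that 3 genes were lower and 0 higher, beside 8.79% of all genes called in that fit, and the median of the 10 was -0.14. Intervals of the other 7 genes spanned 0, from -0.41 to 0.06 for Dnajb9, -0.42 to 0.05 for Sdf2l1, -0.20 to 0.02 for Pdia4, -0.23 to 0.03 for Xbp1, -0.25 to 0.14 for Herpud1, -0.17 to 0.09 for Hyou1 and -0.15 to 0.11 for Edem1. The comparisons of either drug with control share the control libraries and are not independent of each other.

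**Figure D3:**
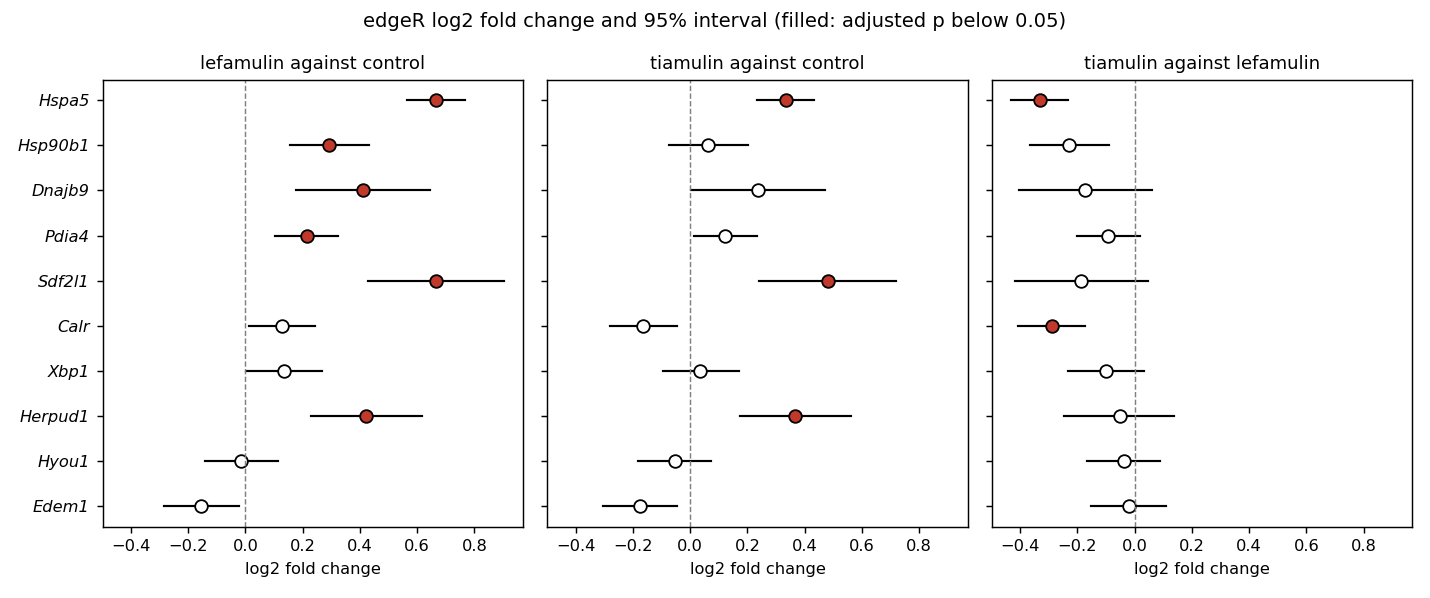
Log2 fold change of each gene (x axis) in the 3 comparisons from the edgeR fit, with bars for the 95% interval and filled points for an adjusted p below 0.05. Lefamulin has 6 filled points to the right of 0, tiamulin 3, and the direct comparison 2 to the left of 0, for Hspa5 and Calr.

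As a share of the library, the 10 genes took 0.321% ± 0.00483 of gene counts in controls, 0.411% ± 0.00537 under lefamulin and 0.345% ± 0.00405 under tiamulin (mean ± SD, n = 3). The ranges did not overlap, at 0.316% to 0.325%, 0.405% to 0.414% and 0.342% to 0.349%, and the tiamulin mean was 0.346% without tiamulin 2. Hspa5 alone took 0.0924% ± 0.00282, 0.148% ± 0.00237 and 0.116% ± 0.00272. Hsp90b1 took 0.0934%, 0.116% and 0.0976%, Calr 0.0513%, 0.0566% and 0.0458%, and the other 7 genes together 0.0836%, 0.0902% and 0.0851%. More than 1 gene therefore contributed to the lefamulin share, and Hspa5 contributed most.

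**Figure D4:**
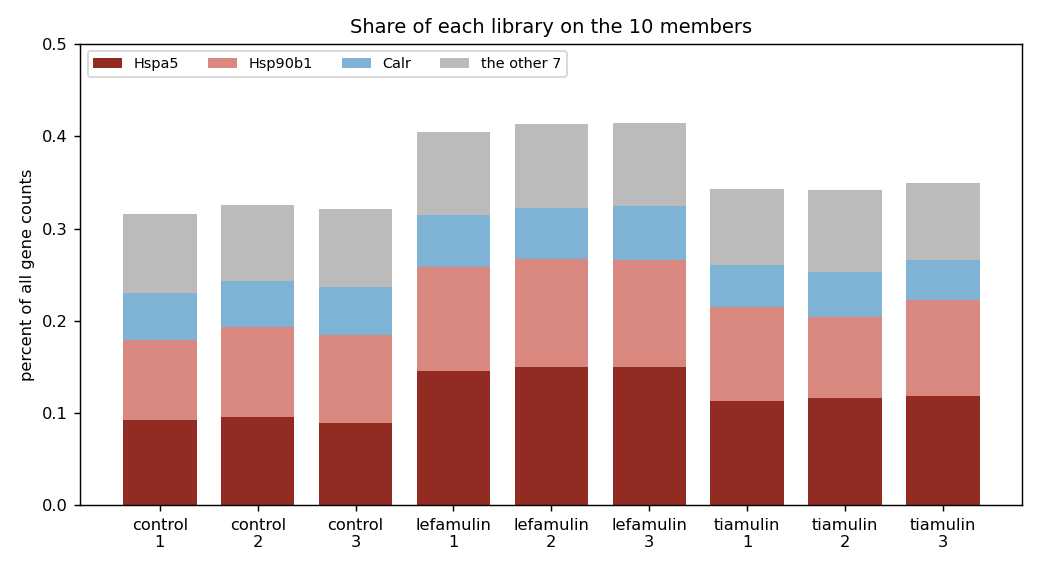
Percent of all gene counts in each library (y axis from 0) that fell on Hspa5, Hsp90b1, Calr and the other 7 genes, stacked. The stacks reach 0.316% to 0.325% in controls, 0.405% to 0.414% under lefamulin and 0.342% to 0.349% under tiamulin, and the Hspa5 segment is largest under lefamulin.

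Across the 9 libraries, log2 CPM of Pdia4 and Sdf2l1 went most closely with that of Hspa5 (Pearson r 0.939 and 0.93), followed by Hsp90b1 (0.824), Dnajb9 (0.804), Herpud1 (0.799) and Xbp1 (0.716). Calr (0.389), Hyou1 (-0.131) and Edem1 (-0.657) did not follow it. These values describe 3 groups of libraries rather than 9 independent points. Among 9191 genes with a mean of at least 10 CPM, the patterns most like that of Hspa5 were those of Erg28 (0.994), Eif1ad (0.994), Rhob (0.992), Slc20a1 (0.990) and Gprc5b (0.987). Those most like Herpud1 were Ywhag (0.987), Adamtsl5 (0.982), Slc25a1 (0.980), Slc35e4 (0.977) and Acly (0.977). The 10 members were left out of both rankings beforehand.

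Among the other ER chaperones and folding enzymes, 0 were called under both drugs in the fit of all 9 libraries. Of 34 genes, 32 were tested, and under lefamulin 2 were higher and 0 lower (6.25%, against 13.1% of all tested genes), with a median log2 fold change of -0.02. Those were Manf, a secreted ER stress protein (0.39, edgeR adjusted p = 0.0119, 0.0675 without control 1, 0.0515 without lefamulin 2 and 0.112 with GC and length offsets), and Dnajb11, a BiP cochaperone (0.28, adjusted p = 0.0195, called in 5 of 9 fits that left out a library and up to 0.115 in the others). Under tiamulin 0 were higher and 5 lower, with a median of -0.12, a share of 15.6% against 16.4% of all tested genes. Without tiamulin 2 it was 28.1% against 23.1%, with a median of -0.09. The disulfide isomerases P4hb (-0.25, adjusted p = 0.00624), Pdia6 (-0.22, adjusted p = 0.011) and Pdia3 (-0.22, adjusted p = 0.0181, 0.0773 without control 2 and 0.0577 without control 3) fell, as did the peptidyl-prolyl isomerase Fkbp2 (-0.36, adjusted p = 0.0283) and the peroxiredoxin Prdx4 (-0.33, adjusted p = 0.0225), called in 7 and 6 of those 9 fits, and Fkbp2 had an adjusted p of 0.192 with the offsets. Between the drugs, Manf (-0.37, adjusted p = 0.0338) and Fkbp11 (-0.32, adjusted p = 0.0341) were lower under tiamulin, in 4 and 2 of the 9 fits, and Manf had 0.141 with the offsets. These were the 2 called of 32, with 0 higher (6.25%, against 4.89% of all tested genes), and without tiamulin 2 there were 0 higher and 4 lower (12.5%, against 8.79%).

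In ERAD, 26 genes were tested, and 4 were higher and 1 lower under lefamulin and 4 higher and 2 lower under tiamulin, with medians of 0.07 in each. That was 19.2% under lefamulin against 13.1% of all tested genes, and 23.1% under tiamulin against 16.4%. Without tiamulin 2 it was again 4 higher and 2 lower, against 23.1% of all genes. Sel1l, the adaptor of the HRD1 ligase, rose under lefamulin (0.30, edgeR adjusted p = 0.0124, 0.0531 without control 1 and 0.0659 without lefamulin 3) and under tiamulin (0.45, adjusted p = 0.000636). Vcp, the ATPase that extracts ubiquitinated proteins, fell under tiamulin (-0.34, adjusted p = 0.0014) and lefamulin (-0.22, adjusted p = 0.03, in 4 of the 9 fits that left out a library and up to 0.172 in the others). Herpud2, a paralogue of Herpud1, stood at 41.5, 41.3 and 41.3 CPM in controls, 41.8, 40.1 and 46.9 CPM under lefamulin and 59.6, 59.2 and 59.1 CPM under tiamulin. It rose under tiamulin (0.52, adjusted p = 0.000225) and was higher than under lefamulin (0.46, adjusted p = 0.00298), whereas the same difference was -0.05 for Herpud1. The ubiquitin ligase Rnf5 fell under tiamulin (-0.67, adjusted p = 0.00235) and was lower than under lefamulin (-0.94, adjusted p = 0.00104). Derl1, a channel component, was higher under lefamulin (0.19, adjusted p = 0.0182) and tiamulin (0.17, adjusted p = 0.0247), and Ube2g2 (0.23, adjusted p = 0.0357) and Rnf185 (0.24, adjusted p = 0.0425) under lefamulin, in 2 to 5 of those 9 fits.

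Of 30 translocon and signal peptide genes, lefamulin gave 1 higher, Sec11c (0.28, edgeR adjusted p = 0.0378), and 1 lower, Rpn2 (-0.20, adjusted p = 0.0343), in 4 and 3 of 9 fits that left out a library. Tiamulin gave 1 higher, the signal recognition particle receptor Srpr (0.26, adjusted p = 0.00316), and 3 lower. Those were Spcs2, a signal peptidase subunit (-0.36, adjusted p = 0.00715), Ssr1 of the translocon-associated complex (-0.25, adjusted p = 0.00921) and the channel subunit Sec61b (-0.44, adjusted p = 0.00946, 0.0511 without control 2 and 0.0718 with GC and length offsets). Srpr was also higher (0.31, adjusted p = 0.00381), and Ssr1 (-0.28, adjusted p = 0.017) and Spcs2 (-0.35, adjusted p = 0.0244) lower, under tiamulin than under lefamulin, the latter pair in 6 of the 9 fits. The list's share called was 6.67% under lefamulin and 13.3% under tiamulin, against 13.1% and 16.4% of all tested genes, with medians of -0.01 and -0.08. Without tiamulin 2 it was 33.3% under tiamulin against 23.1%, with 2 higher, 8 lower and a median of -0.04.

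Among the sensors, Ern1 was higher under tiamulin than under lefamulin, the reverse of Hspa5. Ern1, which encodes IRE1, stood at 188, 185 and 186 CPM in controls, at 185, 193 and 192 CPM under lefamulin, and at 251, 258 and 246 CPM under tiamulin. Only the tiamulin libraries stood apart. Ern1 rose under tiamulin (log2 fold change 0.43, SE 0.051, edgeR adjusted p = 4.53e-05) and was higher there than under lefamulin (0.40, adjusted p = 0.000778), while its change under lefamulin was 0.03 (adjusted p = 0.753). Atf6 rose under tiamulin (0.28, adjusted p = 0.00202) and had 0.16 under lefamulin (adjusted p = 0.0575), with a difference between the drugs of 0.12 (adjusted p = 0.2003). Eif2ak3, which encodes PERK, was higher under tiamulin (0.26, adjusted p = 0.0398), a call that held in 1 of 9 fits that left out a library, with 0.0777 without tiamulin 2 and up to 0.129 in the others.

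In that list of 10 sensors and proteases, 4 were higher and 1 lower under tiamulin and 0 higher and 2 lower under lefamulin, so that 5 and 2 of the 10 were called, against 16.4% and 13.1% of all tested genes. Without tiamulin 2 there were 5 higher and 3 lower under tiamulin, beside 23.1% of all genes. Creb3, a membrane-bound transcription factor related to ATF6, was the remaining gene higher under tiamulin (0.24, edgeR adjusted p = 0.0129, 0.053 without control 2 and 0.0719 without control 3). Its relative Creb3l2 fell under lefamulin (-0.36, adjusted p = 0.0011) and tiamulin (-0.35, adjusted p = 0.000993), and the protease gene Mbtps1, whose product cuts ATF6, was lower under lefamulin (-0.33, adjusted p = 0.0166, in 5 of the 9 fits). Under tiamulin Mbtps1 had a log2 fold change of -0.21 (adjusted p = 0.0924), and it was called without tiamulin 2 (-0.335, adjusted p = 2.43e-05), with no filter and with the offsets.

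In the PERK and ATF4 arm most genes rose under either drug. Of 20 genes tested, 13 were higher and 0 lower under lefamulin, with a median log2 fold change of 0.46, and 17 were higher and 0 lower under tiamulin, with a median of 0.56. These are 65.0% and 85.0% of the list, against 13.1% and 16.4% of all tested genes, and without tiamulin 2 the tiamulin count was 18 higher and 0 lower, beside 23.1% of all genes. In each comparison 4 genes passed a log2 fold change of 1, where none of the 10 chaperone and UPR genes did. Ddit3, which encodes CHOP, stood at 33.2, 31.0 and 31.8 CPM in controls, at 82.0, 85.0 and 85.1 CPM under lefamulin, and at 71.8, 79.5 and 69.6 CPM under tiamulin. No treated library came near the controls. Ddit3 rose by 1.39 on the log2 scale under lefamulin (edgeR adjusted p = 2.5e-08) and 1.202 under tiamulin (adjusted p = 7.94e-08). The glutathione-degrading enzyme Chac1 (1.34 and 1.71), the transcription factor Atf3 (1.24 and 1.04) and the pseudokinase Trib3 (1.16 and 1.34) were the others past 1. Atf4 itself rose by 0.28 under lefamulin (adjusted p = 0.00801, 0.0563 without control 3) and 0.45 under tiamulin (adjusted p = 0.000196).

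Between the drugs, 3 genes of the PERK and ATF4 arm were higher under tiamulin and 0 lower, beside 0 higher and 2 lower of the 10 chaperone and UPR genes. Those 3 of 20 stand against 4.89% of all tested genes called, 2.84% higher and 2.05% lower. The 3 were Chac1 (0.37, edgeR adjusted p = 0.0258), the lipoprotein receptor Vldlr (0.32, adjusted p = 0.035) and the cystine transporter Slc7a11 (0.27, adjusted p = 0.0402), called in 6, 2 and 2 of 9 fits that left out a library. All 3 calls were lost with the 2 groups alone, with the replicate number as a block and with limma on FPKM. Those of Hspa5 and Calr held in each of the 10 alternatives beside leaving out a library. Without tiamulin 2 there were 5 higher and 2 lower (35.0%), beside 8.79% of all genes. The 2 lower were Ddit3 (-0.249, edgeR adjusted p = 0.0108) and Atf3 (-0.245, adjusted p = 0.0246). The symbol Ddit3 was held by 2 protein-coding gene identifiers, and the one with more counts, ENSMUSG00000025408, is given.

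**Figure D5:**
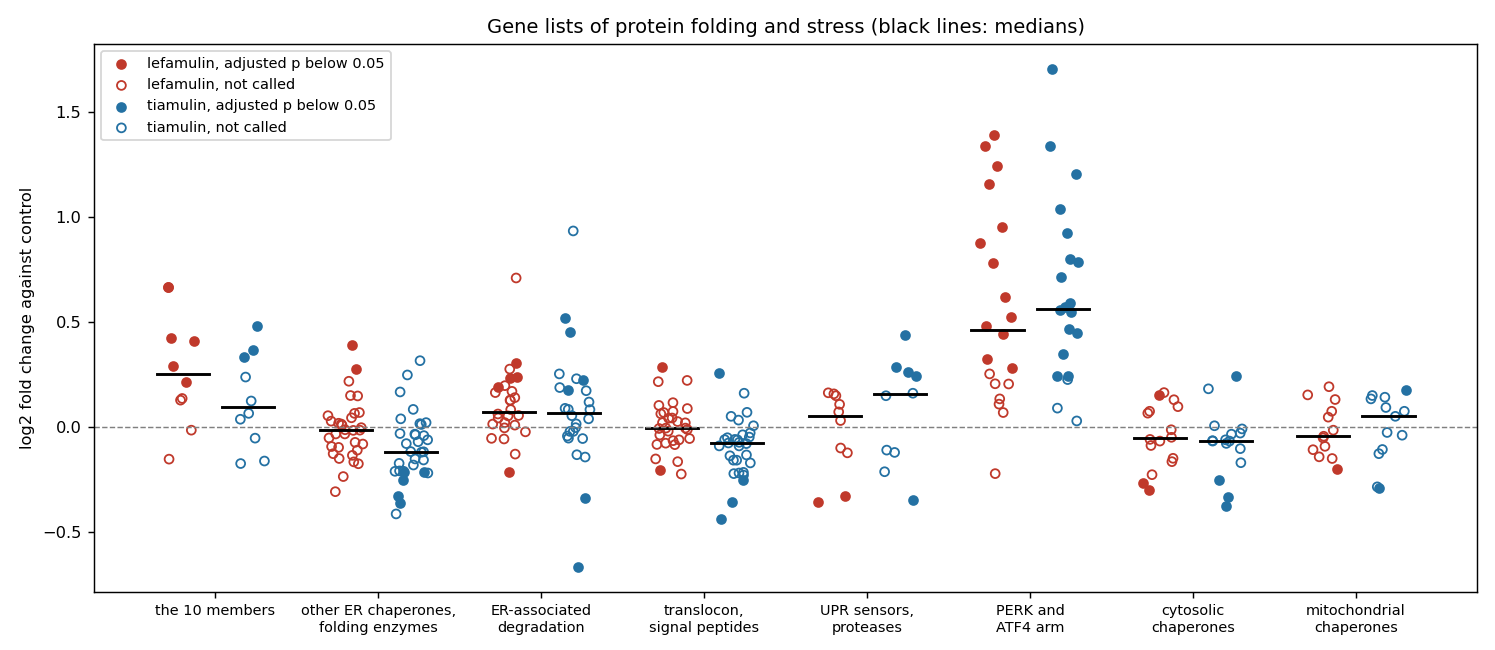
Log2 fold change against control (y axis) of each tested gene in the 10 chaperone and UPR genes and in 7 other lists, for lefamulin (red) and tiamulin (blue), with filled points for an adjusted p below 0.05 and black lines for medians. The PERK and ATF4 arm has medians of 0.46 and 0.56 and 4 points past 1 under each drug, while the medians of the 10 genes are 0.25 and 0.09 and the other 6 lists lie between -0.12 and 0.15.

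Chaperones outside the ER served as a further comparison. Of 16 cytosolic chaperones tested, 1 was higher and 2 lower under lefamulin and 1 higher and 3 lower under tiamulin, or 18.8% and 25.0% of the list against 13.1% and 16.4% of all tested genes. Without tiamulin 2 there were 1 higher and 7 lower under tiamulin, beside 23.1% of all genes. The constitutive HSP70 gene Hspa8 fell under lefamulin (-0.30, edgeR adjusted p = 0.000389), where Hspa5 rose, and Hsp90ab1 fell too (-0.27, adjusted p = 0.00439). Hsph1 (-0.33, adjusted p = 0.00041), Dnaja1 (-0.38, adjusted p = 0.00091) and Stip1 (-0.25, adjusted p = 0.00779) fell under tiamulin. The chaperonin subunit Cct2 was higher under tiamulin (0.24, adjusted p = 0.00226) and lefamulin (0.15, adjusted p = 0.0436, in 2 of 9 fits that left out a library and 0.0598 with GC and length offsets). Of 13 mitochondrial chaperones and proteases, 0 were higher and 1 lower under lefamulin and 1 higher and 1 lower under tiamulin, or 7.69% and 15.4% of the list against the same 13.1% and 16.4%. Without tiamulin 2 there were 1 higher and 3 lower (30.8%), beside the same 23.1%. Hspd1 fell under tiamulin (-0.29, adjusted p = 0.00284), Hspa9 was higher there (0.18, adjusted p = 0.0276, in 3 of those 9 fits), and Trap1 was lower under lefamulin (-0.20, adjusted p = 0.04, in 3 of them).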

How the data were processed

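Processing bearing on these genes was as follows. Per gene, the authors deposited raw counts of reads as whole numbers. They also deposited FPKM, which matched the counts over gene length and over a total of 0.993 to 1.01 times each library's sum. The submitters' processing notes name CASAVA 1.8, fastp, HISAT2 2.0.5, featureCounts 1.5.0-p3, DESeq2 1.20.0 and mm10. Whether counting used strand is not given in the sources used here. In GENCODE M21 (GRCm38), 1435 of 52036 nuclear genes (2.76%) and 0 of the 10 genes sat at their deposited start and end, so deposited positions are given as deposited, with their build not established. Promoters were matched by symbol in RefSeq and not by these positions.

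Testing used edgeR 4.0.16 (R 4.3.3) with TMM scaling, filterByExpr and the robust quasi-likelihood test on 14510 genes, in 1 fit of the 9 libraries with group as its term, and genes were called at a Benjamini-Hochberg adjusted p below 0.05. Log2 fold changes come with standard errors or 95% intervals. CPM per library is shown because 3 libraries against 3 cannot give an exact permutation p below 0.1. The fit was tested on simulated data. Alternatives were DESeq2's size factors, DESeq2 1.42.0, limma 3.58.1 on log2(FPKM + 1) and log2(FPKM + 0.1) for genes above 1 FPKM in at least 3 libraries, no filter, at least 10 counts in every library, the 2 groups alone, GC and length offsets (GENCODE M21 transcripts gave a GC content for 14242 genes, and the others took the median), the replicate number as a block, and leaving out each library.

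The members, the 7 other lists and the tests were chosen with earlier results of these data known. Named were the 10 members, Ern1, Atf6, Eif2ak3, Atf4 and Ddit3, up to 4 genes per other list called in a drug comparison with the treated libraries on the same side of the controls, by smallest adjusted p, and the 5 genes most like Hspa5 and Herpud1. Dnajb11, Fkbp2, Prdx4, Fkbp11, Sec11c, Rpn2, Derl1, Ube2g2, Rnf185, Mbtps1, Hsp90ab1, Stip1, Vldlr and Slc7a11 were named after their values were seen, to complete small counts. Some items these rules cover are not reported here. Untested for low counts were Fkbp10, Rcn1, Fgf21, Hspa1a, Hspa1b and Hspb1.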

Additional observations from a re-analysis of the deposited data

How the results depend on the processing

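The 6 calls under lefamulin and the 3 under tiamulin held under each of the 10 alternatives beside leaving out a library. Among refitted log2 fold changes of the 10 genes, 524 kept direction and call, 28 gained a call, 12 lost it and 6 reversed. Those were Hyou1 under lefamulin (0.007 without control 1, range -0.052 to 0.007 when a library was left out), Xbp1 under tiamulin (-0.007 with GC and length offsets, -0.005 with the block added), and, between the drugs, Herpud1 (0.009 without tiamulin 1, range -0.167 to 0.009) and Edem1 (0.004 without lefamulin 2, 0.018 without tiamulin 1, range -0.044 to 0.018). Under lefamulin 7 genes were higher, Calr added, and 1 lower with the 2 groups alone, and 6 were higher and 1 lower with offsets and with offsets and the block, and all genes called moved from 1900 to 3510, 3577 and 3281. Under tiamulin 6 genes were higher with offsets. There, 1 was lower with at least 10 counts or DESeq2, 3 with offsets and 2 with offsets and the block, and all genes called moved from 2383 to 3938 with offsets and 3648 with the block added. Between the drugs, 710 genes became 1271 with no filter, 280 with the 2 groups alone, 443 and 444 with limma on log2(FPKM + 1) and log2(FPKM + 0.1), 1902 with offsets and 1595 with the block added. Of the 10 genes, 3 were lower, Hsp90b1 added, with no filter, with DESeq2, with offsets and with offsets and the block. Same-numbered libraries had correlations of deviations of -0.464 to 0.055, and differently numbered ones of -0.405 to 0.478. The GC trends of the libraries enter these values, so whether replicate numbers pair the libraries was not settled. The replicate block alone gave 263 genes between the drugs and changed no call of the 10. Leaving out a library gave 3 to 7 higher and 0 to 1 lower of 993 to 3708 genes called under lefamulin, 2 to 5 higher and 0 to 2 lower of 1461 to 3433 under tiamulin, and 0 higher and 1 to 3 lower of 204 to 1309 between the drugs. With protein-coding counts as the denominator the shares were 0.3301%, 0.422% and 0.354%. The cause of these shifts was not tested. Among called list genes, refits under the other alternatives kept the call 604 times and lost it 76 times, leaving out a library kept it 473 times and lost it 139 times, and 0 reversed. Sdf2l1 and Dnajb9 had the fewest reads of the 10 genes, 148 to 595 per library, and whether depth limits their calls was not tested.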
